A study of Frankliniella occidentalis and Frankliniella intonsa with 9 samples.

Results

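The antennal transcriptomes of adult females of 2 related thrips were compared: Frankliniella intonsa, a flower thrips, and Frankliniella occidentalis, the western flower thrips. The comparison used 6 of the 9 libraries of the series, 3 of F. intonsa females and 3 of F. occidentalis females, chosen by the species and sex in the sample labels. All 6 were made from antennae of adults 1 day old, and no treatment was labelled in either species. The other 3 libraries, of F. occidentalis males, are given only beside vitellogenin. The study asked how the odorant-binding and chemosensory proteins of these species compare. The labels do not say whether a replicate was a separate insect, a pool or a repeated library, so p-values measure the spread between these libraries, which may be technical.

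Antennae are the main olfactory organs of insects and carry sensilla in which the dendrites of receptor neurons lie in lymph. Odorant-binding proteins and chemosensory proteins are small soluble proteins of that lymph that bind hydrophobic odorants, while odorant receptors work together with a shared coreceptor in the neuron membrane. Antennae also hold muscle, cuticle and enzymes that break down odorants and toxins, such as cytochromes P450, glutathione S-transferases and UDP-glycosyltransferases.

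The deposited table is 1 list of 48889 genes (rows) for both species, with a TPM value (transcripts per 1000000) for each library. Since the same gene of each species is often a separate row, the species were compared by protein name. Rows with the same Swiss-Prot description were summed, rows without one were left out, and each library was rescaled to 1000000 TPM over the rows kept. This left 16468 rows under 7332 protein names. Of the kept rows above 0 in any of the 6 libraries, 28.6% were above 0 in both species; of protein names, 62.2% were. The species names in the annotation text followed the labels. Mitochondrial rows annotated to F. intonsa held 0.546%, 0.537% and 0.326% of all TPM in F. intonsa libraries 1, 2 and 3, against 0.0296%, 0.0550% and 0.0315% in F. occidentalis libraries 1, 2 and 3. Mitochondrial rows annotated to F. occidentalis held 0.0377%, 0.105% and 0.0225% in the F. intonsa libraries, against 1.01%, 1.32% and 1.12% in the F. occidentalis libraries.

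F. intonsa libraries 1 and 3 stood apart from every other library in the share of TPM kept and in the number of protein names above 0. The kept rows held 12.6%, 45.2% and 6.54% of all TPM in F. intonsa libraries 1, 2 and 3, against 38.9%, 40.5% and 43.8% in F. occidentalis. Rescaling therefore multiplied the deposited values by 8.08, 2.30 and 15.5 in F. intonsa and by 2.38 to 2.68 in F. occidentalis. F. intonsa libraries 1, 2 and 3 had 3927, 5798 and 2839 protein names above 0, against 5089 to 5227 in F. occidentalis. Over proteins above 0 in either library of a pair, the Spearman correlation was 0.36, 0.209 and 0.152 between F. intonsa libraries, against 0.93 to 0.957 between F. occidentalis libraries. It was 0.37 to 0.39 between F. intonsa library 2 and the F. occidentalis libraries and -0.062 to 0.12 for F. intonsa libraries 1 and 3. By this measure library 2 also lay far from the F. occidentalis libraries, and about as far from F. intonsa library 1. These correlations are across proteins, which are not independent replicates. Values are given for each library in the order 1, 2 and 3, and they are rescaled TPM unless stated. Read counts were not used here, and library depth is unknown.

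A protein was tested if it reached 1 rescaled TPM in at least 3 of the 6 libraries. The test was limma-trend on log2(rescaled TPM + 1), with a Benjamini-Hochberg adjusted p under 0.05 as the call, and it understates changes of low proteins. Of 5513 proteins tested, 1800 (32.7%) were called, 468 (8.49%) higher and 1332 (24.2%) lower in F. intonsa. The groups did not overlap for 2928 (53.1%) of the tested proteins, called or not. Among the 1800, 775 were listed at 0 throughout F. intonsa and 324 throughout F. occidentalis. Such proteins pass the filter only through the other species: 775 of 780 tested ones at 0 in F. intonsa and 324 of 425 at 0 in F. occidentalis were called. Their calls are therefore close to fixed by the filter, and counts of called list members include them. A protein at 1 or more in fewer than 3 F. intonsa libraries can also pass through the F. occidentalis libraries alone. Only 122 were above 0 in all 6 libraries, 80 higher and 42 lower (7.7% of 1585 such proteins were called). These calls do not give the direction of the 1585, whose median log2 difference was -0.69. By library, the median of the 1585 was 0.43, -0.079 and -2.11 for F. intonsa libraries 1, 2 and 3 against the F. occidentalis mean. The libraries thus did not share 1 direction, and library 3 lay far lower than the others. Of the 613 (38.7%) among them whose groups did not overlap, 251 were higher and 362 lower. Asking for values above 0 in all 6 libraries also leaves out proteins listed at 0 in any F. intonsa library. When the proteins above 0 in all 6 libraries were fitted alone, 2 of 1590 (0.126%) were called, at 338 with an unadjusted p under 0.05. In 5513 simulated proteins, 100 were changed by a log2 of 4 and 100 by a log2 of 2. Each protein had 1 normal spread, taken from the fit, for both species. The change of 4 was recovered for 17% of changed proteins and that of 2 for 0%. Far fewer proteins were changed there than were called in the data, and unequal spread and values held at 0 were not simulated. These rates therefore do not give the recovery of the actual fit.

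The median log2 difference over all tested proteins was -1.89, which is the level a list is read against. Counts of called list members are read against the 8.49% higher and 24.2% lower of all tested proteins. By library, it was -1.74, -0.33 and -3.58 for F. intonsa libraries 1, 2 and 3 against the mean of the 3 F. occidentalis libraries. Of the tested proteins, 41.0%, 16.1% and 55.7% were listed at 0 in F. intonsa libraries 1, 2 and 3. F. intonsa library 2 was thus the one whose values were centred near those of F. occidentalis.

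**Figure D1:**
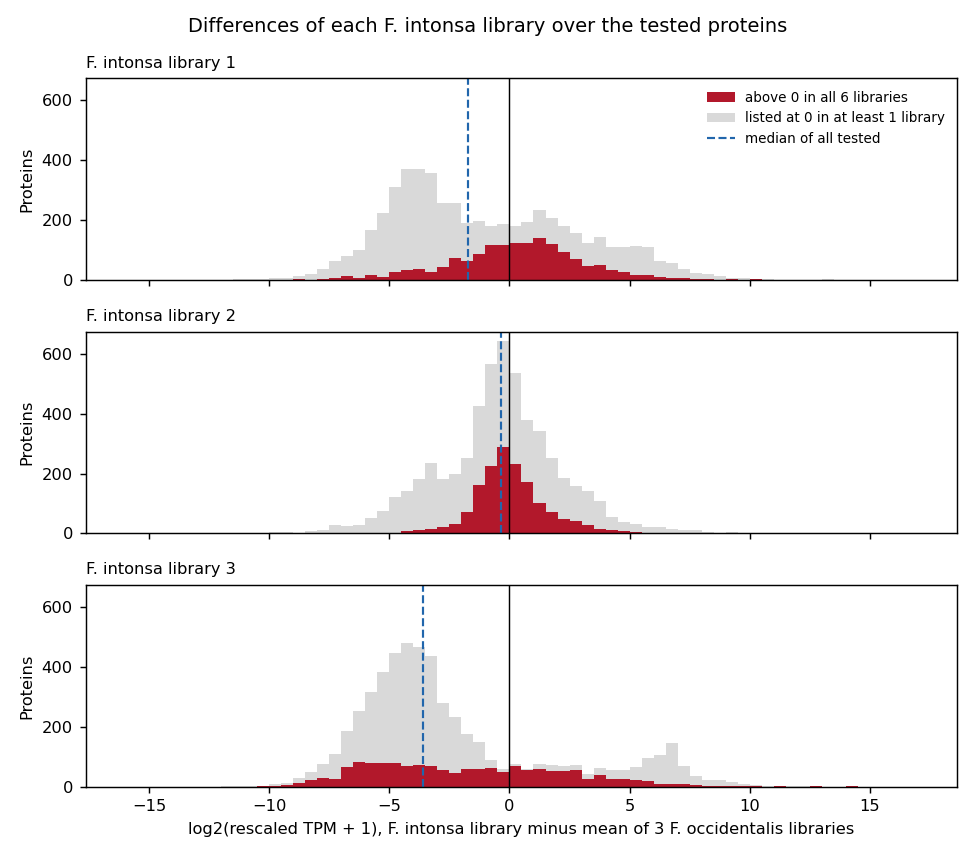
Histograms of the difference in log2(rescaled TPM + 1) between each F. intonsa library and the mean of the 3 F. occidentalis libraries, over 5513 tested proteins; red bars are the 1585 proteins above 0 in all 6 libraries, grey bars the others, and the dashed line is the median. The medians lie at -1.74, -0.33 and -3.58, and 86.5%, 61.6% and 94.8% of proteins differ by over 2-fold in F. intonsa libraries 1, 2 and 3.

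Among soluble carriers of the sensillum lymph, 1 odorant-binding protein and 2 chemosensory proteins could be tested, and 0 were called (limma-trend). General odorant-binding protein 70, a member of the odorant-binding family, was listed at 0 in F. intonsa libraries 1 and 3 and had 30.4 in library 2, against 45.5, 41.4 and 42.4 in F. occidentalis (adjusted p = 0.104). Ejaculatory bulb-specific protein 3, the Swiss-Prot name under which several insect chemosensory proteins appear, had 1418, 13447 and 1095 in F. intonsa, against 12994, 9573 and 11546 in F. occidentalis (adjusted p = 0.162). F. intonsa library 2 lay above the F. occidentalis range and libraries 1 and 3 below it. Putative odorant-binding protein A10, which despite its name belongs to the chemosensory proteins, had 1026, 938 and 17.3 in F. intonsa, against 137, 136 and 220 in F. occidentalis (adjusted p = 0.769). Here libraries 1 and 2 of F. intonsa lay above all F. occidentalis libraries and library 3 below them. The 2 chemosensory proteins together took 0.244%, 1.44% and 0.111% of rescaled TPM in F. intonsa, against 1.31%, 0.971% and 1.18% in F. occidentalis.

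The rule reaches few odorant-binding proteins, because 16 of the 18 rows worded as such in the annotation text carry no Swiss-Prot name. Those rows held 0.109%, 0.4225% and 0.0203% of all deposited TPM in F. intonsa, against 0.274%, 0.373% and 0.371% in F. occidentalis. The 4 chemosensory rows without a Swiss-Prot name held 0.0243%, 0.103% and 0.0068% in F. intonsa, against 0.170%, 0.200% and 0.259% in F. occidentalis.

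Receptors were low in every library. The odorant receptor coreceptor, which forms the channel with the ligand-specific receptors, had 0.647, 42.4 and 0 in F. intonsa, against 24.6, 43.0 and 38.2 in F. occidentalis (adjusted p = 0.174). F. intonsa library 2 lay within the F. occidentalis range. Odorant receptor 4 had 0, 0.645 and 0 in F. intonsa, against 11.7, 18.4 and 11.3 in F. occidentalis, and reached the filter through the F. occidentalis libraries alone. Ionotropic receptor 25a, a coreceptor of the ionotropic class, had 0, 45.9 and 0 in F. intonsa, against 8.91, 11.6 and 16.1 in F. occidentalis (adjusted p = 0.412). Gustatory receptor for sugar taste 64f had 0, 31.1 and 0.464 in F. intonsa, against 12.3, 20.5 and 21.4 in F. occidentalis (adjusted p = 0.246). In both of these, library 2 of F. intonsa was the highest of the 6.

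Over the lists, 2 of 4 proteins with odorant receptor names and 3 of 4 gustatory receptors were called lower and 0 higher. Of all tested proteins, 24.2% were called lower and 8.49% higher. In each of these lists 0 members were above 0 in all 6 libraries, and 2 of the gustatory receptors were listed at 0 in F. intonsa. The filter therefore bears on these counts. The only ionotropic receptor and both sensory neuron membrane proteins were not called. Sensory neuron membrane protein 2 had 0, 123 and 0 in F. intonsa, against 119, 79.7 and 159 in F. occidentalis. Sensory neuron membrane protein 1, which helps detect lipid pheromones in Drosophila and moths, had 28.2, 38.9 and 0 in F. intonsa, against 16.1, 33.0 and 29.5 in F. occidentalis.

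Neuronal proteins were called lower in 11 of 21 cases and higher in 0, against 24.2% lower and 8.49% higher of all tested proteins, with a median log2 difference of -2.46. Of the 11, 4 were listed at 0 in F. intonsa. Vesicular glutamate transporter 2.2, which loads glutamate into synaptic vesicles, had 0, 14.6 and 0 in F. intonsa, against 208, 234 and 251 in F. occidentalis, and was called lower (log2 difference -6.53 ± 1.27, SE, adjusted p = 0.0105). It passed the filter through the F. occidentalis libraries, being above 0 in library 2 alone in F. intonsa. Synaptotagmin 1, the calcium sensor of vesicle release, differed little in any library. It had 131, 161 and 153 in F. intonsa, against 110, 162 and 140 in F. occidentalis (log2 difference 0.12 ± 0.59, SE, adjusted p = 0.884). Of proteins of cilia and axonemes, which build the sensory dendrite's outer segment, 6 of 24 were called lower, a share near the 24.2% of all tested proteins, and 0 higher. Their summed share was 0.173%, 0.0598% and 0.206% in F. intonsa, against 0.0460%, 0.0529% and 0.0498% in F. occidentalis. This log2 difference of 1.38 depends on the rescaling. It multiplied F. intonsa libraries 1 and 3 by 8.08 and 15.5, against 2.38 to 2.68 in F. occidentalis. Intraflagellar transport protein 172 homolog, a part of the machinery that builds cilia, made up part of the summed share. It had 705, 18.2 and 1318 in F. intonsa, against 8.91, 8.27 and 4.96 in F. occidentalis (adjusted p = 0.0756). Most of its F. intonsa value lay in 1 row of 969 bases, with 705, 16.1 and 1318, which was listed at 0 in F. occidentalis.

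Markers of the tissues inside the antenna and of neighbouring tissues split the F. intonsa libraries. In bulk RNA, fewer cells of a type and less RNA per cell cannot be told apart. Muscle proteins took 0.996%, 10.8% and 0.762% of rescaled TPM in F. intonsa, against 13.4%, 12.9% and 17.4% in F. occidentalis. Only 1 of 21 muscle proteins was called, against 32.7% of all tested proteins: tropomyosin, which regulates the thin filament. It had 819, 3526 and 368 in F. intonsa, against 6965, 7976 and 9385 in F. occidentalis (log2 difference -2.98 ± 0.83, SE, adjusted p = 0.0409). It was not called on the TPM as deposited (adjusted p = 0.0738). Actin, indirect flight muscle, had 832, 30996 and 349 in F. intonsa, against 37891, 34624 and 52304 in F. occidentalis (adjusted p = 0.101), from 1 row above 0 in both species. Myosin regulatory light chain 2, which tunes contraction, had 2655, 16956 and 1321 in F. intonsa, against 21317, 22423 and 25235 in F. occidentalis (adjusted p = 0.0864). For both, library 2 lay slightly below the F. occidentalis range and libraries 1 and 3 far below it.

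Eye proteins took 0.0409%, 0.761% and 0.109% in F. intonsa, against 0.793%, 1.08% and 0.800% in F. occidentalis. Of these, 1 of 10 was called lower and 0 higher, against 24.2% and 8.49% of all tested proteins. Rhodopsin, the visual pigment, had 128, 2734 and 914 in F. intonsa, against 3086, 4288 and 2873 in F. occidentalis (adjusted p = 0.168). Arrestin homolog, a protein that ends receptor signalling, had 33.1, 3314 and 49.9 in F. intonsa, against 3294, 4510 and 3524 in F. occidentalis (adjusted p = 0.117). F. intonsa library 2 lay just below the F. occidentalis range for rhodopsin and within it for arrestin homolog. The labels give antennae as the tissue, and whether eye or head tissue entered the samples was not tested.

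Cuticle proteins took 0.366%, 4.86% and 0.0136% in F. intonsa, against 1.95%, 1.58% and 1.51% in F. occidentalis. Of these, 10 of 24 were called lower and 0 higher, against 24.2% and 8.49% of all tested proteins. Larval cuticle protein A3A, a structural cuticle protein, had 87.6, 1417 and 12.4 in F. intonsa, against 11067, 8825 and 10174 in F. occidentalis. It was called lower (log2 difference -6.39 ± 1.67, SE, adjusted p = 0.0322). Larval cuticle protein A1A was not called, with 2277, 43457 and 92.6 in F. intonsa, against 5460, 3356 and 1521 in F. occidentalis. Library 2 was the highest of the 6 for A1A and library 3 the lowest.

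The fat body list was lower in all 3 F. intonsa libraries. It took 0.0275%, 0.242% and 0.0124% in F. intonsa, against 1.42%, 1.84% and 0.935% in F. occidentalis females. Of its members, 5 of 8 were called lower and 0 higher, against 24.2% and 8.49% of all tested proteins. Vitellogenin, the yolk protein precursor made in the fat body of females, had 3.72, 136 and 2.48 in F. intonsa, against 3774, 6494 and 3152 in F. occidentalis females (log2 difference -8.35 ± 1.53, SE, adjusted p = 0.00834). Its sum rested on 8 rows, 7 of them above 0 in both species. F. occidentalis males had 31.1, 40.7 and 43.9. The highest F. intonsa female therefore lay above the males and far below the F. occidentalis females, and the other F. intonsa libraries lay below the males. Vitellogenin-1, another yolk precursor name, had 233, 1622 and 7.12 in F. intonsa, against 6212, 6561 and 3351 in F. occidentalis (adjusted p = 0.0920). The call for vitellogenin was lost (adjusted p = 0.0793) when only proteins above 0 in all 6 libraries were fitted.

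**Figure D2:**
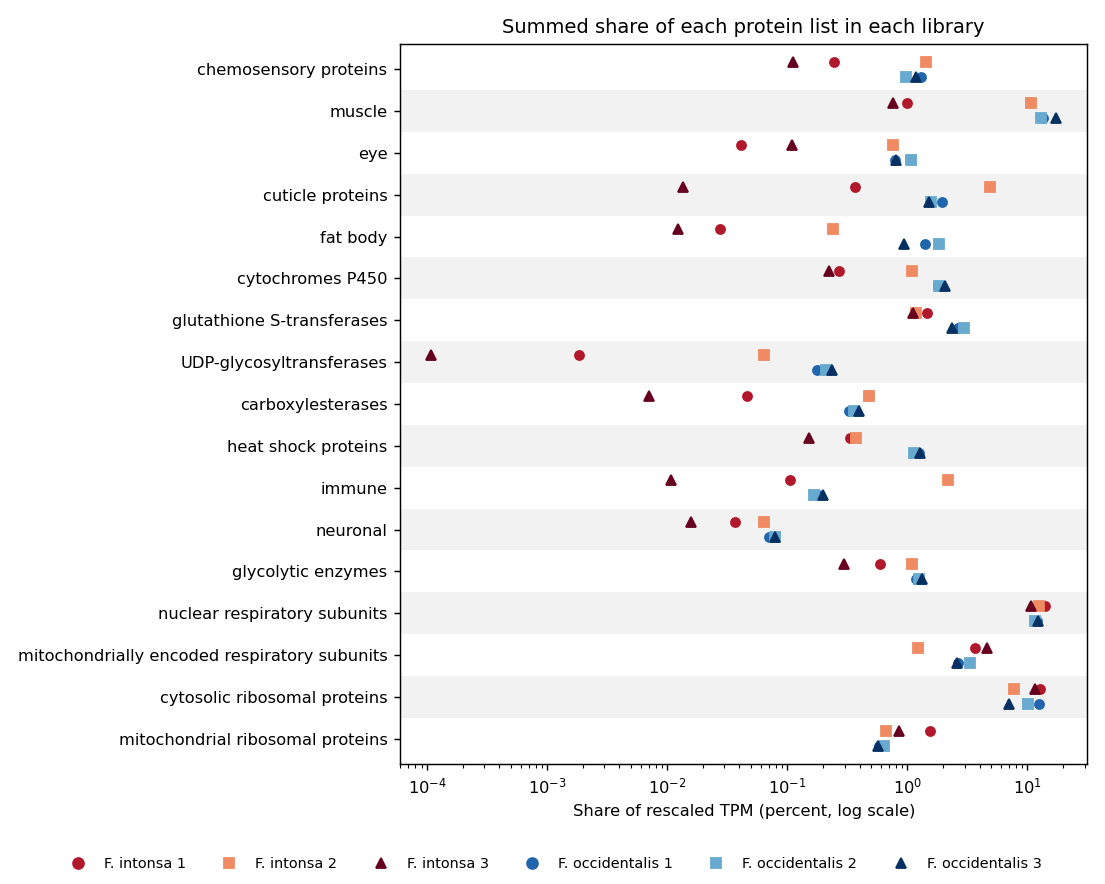
Percent of rescaled TPM (log axis) taken by 17 protein lists in each library, with the 3 F. intonsa libraries in red on the upper line of each list and the 3 F. occidentalis libraries in blue on the lower line. Muscle, eye and chemosensory proteins of F. intonsa library 2 lie near those of F. occidentalis, while fat body, heat shock, P450, glutathione S-transferase and UDP-glycosyltransferase shares are lower in all 3 F. intonsa libraries.

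Detoxification enzymes were lower as sums in all 3 F. intonsa libraries for 3 families. Cytochromes P450, which oxidize odorants, hormones and insecticides, took 0.270%, 1.09% and 0.224% in F. intonsa, against 1.82%, 1.83% and 2.05% in F. occidentalis. Of 38 tested, 3 were called higher and 17 lower, against 8.49% and 24.2% of all tested proteins. The median log2 difference was -3.71, and 13 of the 17 were listed at 0 in F. intonsa. Probable cytochrome P450 6a14 had 182, 562 and 127 in F. intonsa, against 3876, 2080 and 3552 in F. occidentalis (log2 difference -3.69 ± 0.68, SE, adjusted p = 0.00851). Its rows did not overlap between species: 2 were above 0 in F. intonsa and 9 in F. occidentalis. Probable cytochrome P450 6a23 had 0.647, 101 and 0.310 in F. intonsa, against 483, 910 and 625 in F. occidentalis (log2 difference -6.75 ± 1.83, SE, adjusted p = 0.0373). It passed the filter through the F. occidentalis libraries, with only library 2 of F. intonsa above 1. The KEGG orthology entry that 6a14 and 6a23 share joined 18 names and was not called, with 785, 7521 and 765 in F. intonsa, against 13212, 12267 and 14047 in F. occidentalis (log2 difference -2.99 ± 0.93, SE, adjusted p = 0.0766). Cytochrome P450 4d2 went the other way, with 51.4, 110 and 37.6 in F. intonsa, against 2.20, 10.5 and 8.08 in F. occidentalis (log2 difference 3.13 ± 0.86, SE, adjusted p = 0.0387), and it was not called on the TPM as deposited (adjusted p = 0.267). Cytochrome P450 6k1 was not called, with 251, 3668 and 511 in F. intonsa, against 3342, 4403 and 3818 in F. occidentalis.

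UDP-glycosyltransferases, which attach sugars to lipophilic compounds, took 0.00186%, 0.0642% and 0.000108% in F. intonsa, against 0.177%, 0.212% and 0.236% in F. occidentalis. Of 16 tested, 11 were called lower and 0 higher, against 24.2% and 8.49% of all tested proteins. Among the 11, 5 were listed at 0 in F. intonsa, and the median log2 difference of the list was -5.72. UDP-glucuronosyltransferase 2C1 (Fragment) had 0, 11.1 and 0 in F. intonsa, against 468, 566 and 558 in F. occidentalis (log2 difference -7.85 ± 1.19, SE, adjusted p = 0.00375), from 1 row. UDP-glucuronosyltransferase 2B15 had 0, 10.9 and 0 in F. intonsa, against 394, 427 and 424 in F. occidentalis (log2 difference -7.51 ± 1.18, SE, adjusted p = 0.00436). Both passed the filter through the F. occidentalis libraries, being above 0 in library 2 alone in F. intonsa. Their shared KEGG entry joined 19 names and was not called (log2 difference -6.02 ± 1.997, SE, adjusted p = 0.0922). Both names were lower also in F. intonsa library 2, which was near F. occidentalis for muscle and eye proteins.

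Carboxylesterases, which cleave ester odorants and juvenile hormone, took 0.0462%, 0.483% and 0.00700% in F. intonsa, against 0.324%, 0.361% and 0.398% in F. occidentalis. Of these, 6 of 13 were called lower and 0 higher, against 24.2% and 8.49% of all tested proteins, and 4 of the 6 were listed at 0 in F. intonsa. Juvenile hormone esterase had 0, 66.0 and 0.310 in F. intonsa, against 274, 360 and 417 in F. occidentalis (log2 difference -6.29 ± 1.77, SE, adjusted p = 0.0416). It passed the filter through the F. occidentalis libraries, with only library 2 of F. intonsa above 1. Its call was lost under 9 alternatives, with adjusted p of 0.0535 to 0.144, 5 of them fits with 1 library left out. Juvenile hormone epoxide hydrolase 1, another enzyme that inactivates the hormone, had 8.16, 120 and 7.43 in F. intonsa, against 1613, 1998 and 1676 in F. occidentalis (log2 difference -6.38 ± 1.19, SE, adjusted p = 0.00881). Joined with the other name of its KEGG orthology entry, it had 213, 183 and 267 in F. intonsa, against 1613, 1998 and 1676 in F. occidentalis, a smaller difference that was called (log2 difference -3.002 ± 0.41, SE, adjusted p = 0.00297). ABC transporters, membrane pumps, took 0.0946%, 0.0822% and 0.130% in F. intonsa, against 0.0425%, 0.0497% and 0.0481% in F. occidentalis, with 4 of 21 called higher and 5 lower, while on the TPM as deposited their sum was lower in F. intonsa by a log2 difference of -0.27. Of all tested proteins, 8.49% were called higher and 24.2% lower. This list also holds bacterial pump names.

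Glutathione S-transferases conjugate glutathione to reactive compounds, and their names changed in opposite directions. Of 13 tested, 5 were called higher and 3 lower, against 8.49% and 24.2% of all tested proteins. Glutathione S-transferase 1-1 had 9377, 5361 and 3915 in F. intonsa, against 81.7, 99.0 and 77.0 in F. occidentalis (log2 difference 6.07 ± 0.49, SE, adjusted p = 0.000340). It was 1 of the 2 proteins called when only those above 0 in all 6 libraries were fitted (adjusted p = 0.0174). Its F. intonsa value lay mostly in 1 row of 220 bases, with 9237, 5094 and 3690, and none of its 7 rows was above 0 in both species. Glutathione S-transferase 1, isoform D, had 3455, 2610 and 6818 in F. intonsa, against 18139, 20740 and 16751 in F. occidentalis (log2 difference -2.23 ± 0.38, SE, adjusted p = 0.00586). Its 13 rows were likewise divided, 5 in F. intonsa and 8 in F. occidentalis, and it was not called under median-ratio scaling (adjusted p = 0.281).

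Joining the 12 descriptions that share the glutathione S-transferase entry in KEGG orthology gave 14258, 11256 and 11235 in F. intonsa, against 23662, 26759 and 21048 in F. occidentalis. The joined entry was called lower (log2 difference -0.96 ± 0.25, SE, adjusted p = 0.0418). Its groups did not overlap, a state found for 53.1% of all tested proteins by name. Glutathione S-transferase 1-1 was thus higher while the sum of the family was lower.

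Names also divided the species for cytochrome c oxidase, the last complex of the respiratory chain. Cytochrome c oxidase subunit 4 isoform 1 (Fragment) was listed at 0 in all F. intonsa libraries and had 3675, 3320 and 3367 in F. occidentalis. Isoform 2 had 1852, 3918 and 1457 in F. intonsa and was listed at 0 in all F. occidentalis libraries. Both were called, yet these 2 names share 1 entry, whose sum did not differ beyond its spread (log2 difference -0.65 ± 0.45, SE, adjusted p = 0.338). Cytochrome c oxidase subunit 6B2 had 10186, 5558 and 18462 in F. intonsa and was listed at 0 in F. occidentalis, where subunit 6B had 3872, 3831 and 3583. Their joined entry had 10416, 5570 and 18545 in F. intonsa, against 3872, 3831 and 3583 in F. occidentalis (log2 difference 1.45 ± 0.48, SE, adjusted p = 0.0917).

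Cytochrome c oxidase subunit 1, the catalytic subunit encoded in the mitochondrial genome, had 2012, 1605 and 1223 in F. intonsa, against 8247, 11342 and 10059 in F. occidentalis (log2 difference -2.63 ± 0.28, SE, adjusted p = 0.000758). Most of the F. intonsa value lay in 1 row of 1915 bases annotated to F. occidentalis, with 1720, 1544 and 823. The row annotated to F. intonsa is named cytochrome c oxidase subunit 1 (Fragment) and had 10399, 2267 and 6234 in F. intonsa, and it was listed at 0 in F. occidentalis. Joined, the entry had 12717, 4044 and 7522 in F. intonsa, against 8247, 11342 and 10059 in F. occidentalis (log2 difference -0.43 ± 0.47, SE, adjusted p = 0.531). The call was lost, and the groups overlapped.

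**Figure D3:**
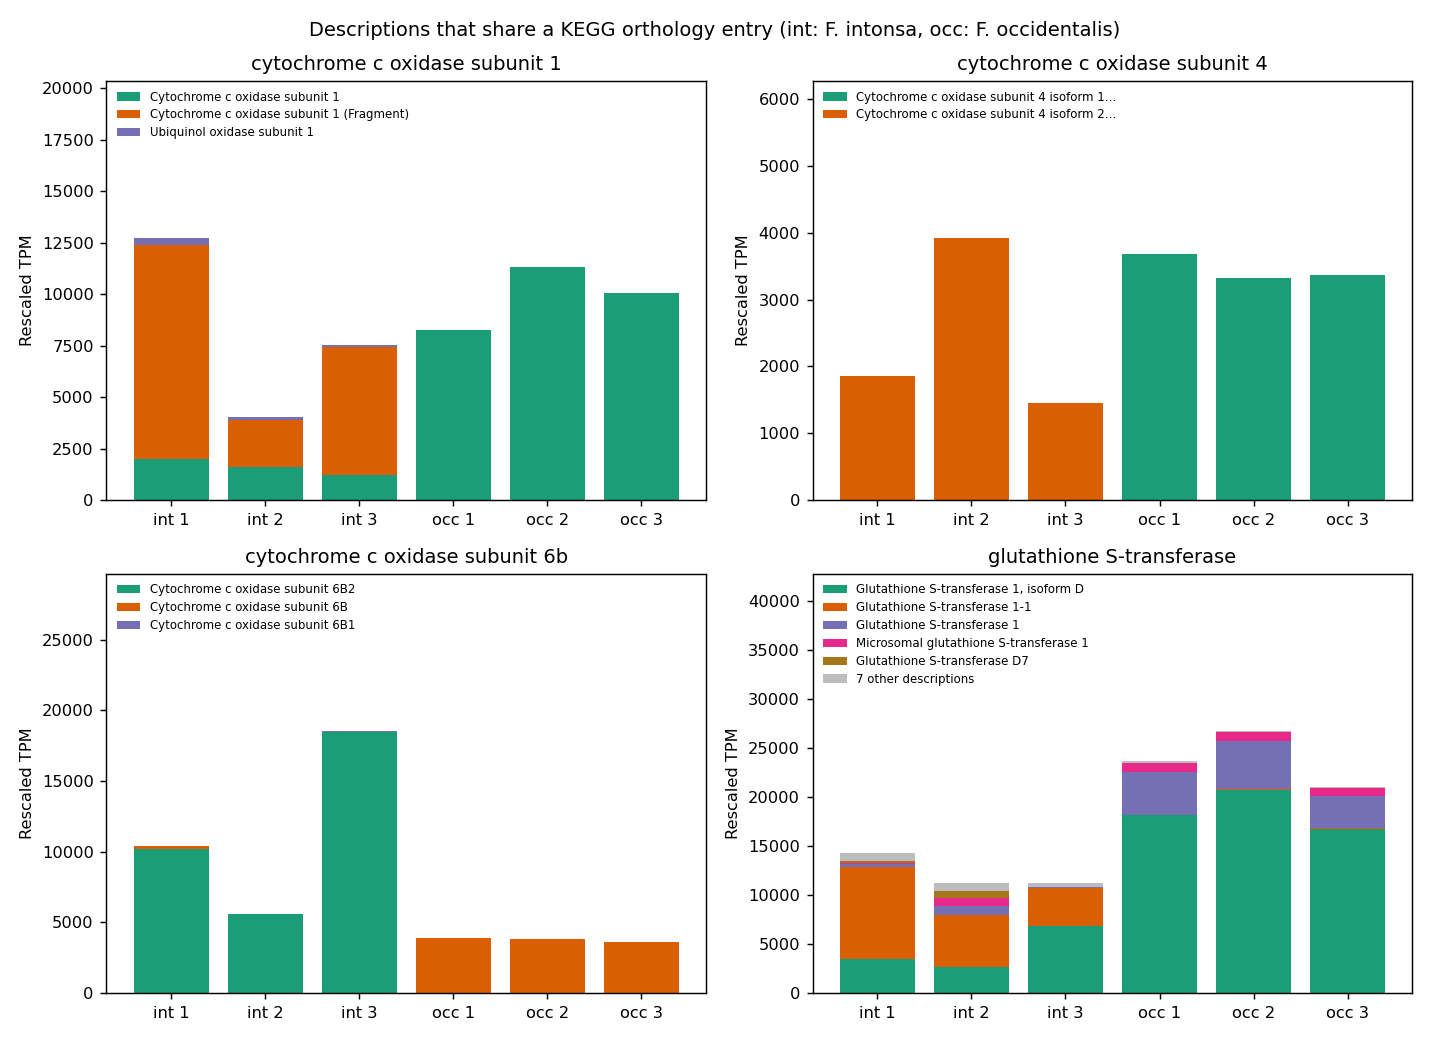
Rescaled TPM of the descriptions joined by 1 KEGG orthology entry, stacked, in F. intonsa libraries 1 to 3 (int) and F. occidentalis libraries 1 to 3 (occ), for 3 subunits of cytochrome c oxidase and for glutathione S-transferase. The colours change between species while the heights differ less: the 2 names of subunit 4 never occur in the same library.

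How often naming divides the species can be counted. Of the 775 called proteins listed at 0 in F. intonsa, 475 carried a KEGG orthology entry, and for 307 of them (64.6%) that entry was above 0 in F. intonsa under another name. Of the 324 called proteins listed at 0 in F. occidentalis, 145 carried an entry, and for 104 of them (71.7%) it was above 0 in F. occidentalis. When rows were joined by entry, 429 of 2283 entries (18.8%) were called, 78 higher and 351 lower. The entries themselves are the authors' assignments and some join unlike proteins. The 64.6% and 71.7% therefore do not give how often naming alone divided the species.

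Part of the F. intonsa values lay in rows whose annotation names a mammal. The 61 rows annotated to Sus scrofa, the pig, held 0.253%, 0.272% and 0.318% of all deposited TPM in F. intonsa, against 0.0012%, 0.0020% and 0.0017% in F. occidentalis. They were of nearly the same deposited level in the 3 F. intonsa libraries, although these differ in other ways. Rows that name any mammal and have an animal Swiss-Prot match took 1.34%, 0.529% and 2.81% of rescaled TPM in F. intonsa, against 0.361%, 0.960% and 0.571% in F. occidentalis. Of the 468 proteins called higher, 53 (11.3%) had over 50% of their F. intonsa TPM in such rows, and 42 of these were listed at 0 in F. occidentalis. Where this RNA came from was not tested.

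These rows bear on the nuclear-encoded respiratory subunits, where 17 of 69 were called higher and 7 lower, against 8.49% and 24.2% of all tested proteins. Of the 17, 12 were listed at 0 in F. occidentalis and passed the filter through F. intonsa alone, and 3 were above 0 in all 6 libraries. Of the 7, 3 were listed at 0 in F. intonsa. The count of 17 is therefore largely set by the filter. Of the 17 called higher, 11 had most of their F. intonsa TPM in rows naming a mammal. Among those 11, chosen after their values were seen, cytochrome c oxidase subunit 7C had 49.7, 14.5 and 122 in F. intonsa and was listed at 0 in F. occidentalis. Subunit 6A1 had 64.5, 13.1 and 111 in F. intonsa and was also listed at 0 in F. occidentalis. The summed share of the nuclear subunits was 14.1%, 12.5% and 10.8% in F. intonsa, against 12.1%, 11.7% and 12.3% in F. occidentalis, so the groups overlapped.

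Cytochrome b-c1 complex subunit 10, a small subunit of complex III, was the other protein called when only those above 0 in all 6 libraries were fitted (adjusted p = 0.0461). It had 37.2, 7.02 and 79.9 in F. intonsa, against 6111, 5574 and 4556 in F. occidentalis (log2 difference -7.53 ± 0.94, SE, adjusted p = 0.00162). Its whole F. intonsa value lay in 1 row of 388 bases annotated to a hamster and listed at 0 in F. occidentalis. The F. occidentalis value lay in 2 rows listed at 0 in F. intonsa. With the rows naming a mammal left out, it therefore had no value in F. intonsa. Both proteins that passed the fit of proteins above 0 in all 6 libraries thus rested on rows that the species did not share.

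Other nuclear subunits did not rest on mammal rows. NADH dehydrogenase [ubiquinone] 1 alpha subcomplex subunit 5, an accessory subunit of complex I, had 7800, 2405 and 1806 in F. intonsa, against 479, 524 and 458 in F. occidentalis (log2 difference 2.73 ± 0.62, SE, adjusted p = 0.0193). Its KEGG entry was also called higher (adjusted p = 0.0272), while on the TPM as deposited it was not called (adjusted p = 0.316). NADH dehydrogenase [ubiquinone] 1 beta subcomplex subunit 5 was listed at 0 in all F. intonsa libraries and had 1172, 1157 and 1269 in F. occidentalis, and no other name of its entry was found. Cytochrome c oxidase subunit 6A2 had 3902, 6847 and 2238 in F. intonsa, against 15879, 13598 and 13268 in F. occidentalis (log2 difference -1.86 ± 0.42, SE, adjusted p = 0.0189). Its entry was called lower as well (adjusted p = 0.0337), while under median-ratio scaling the subunit was not called (adjusted p = 0.118). The flavoprotein subunit of succinate dehydrogenase, which links the citric acid cycle to respiration, had 296, 208 and 119 in F. intonsa, against 908, 918 and 1237 in F. occidentalis (log2 difference -2.37 ± 0.55, SE, adjusted p = 0.0208), and it was not called under median-ratio scaling (adjusted p = 0.0918). ATP synthase lipid-binding protein, the ring subunit of the ATP synthase rotor, was not called, with 3179, 14272 and 271 in F. intonsa, against 15019, 14771 and 16096 in F. occidentalis.

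Of 10 subunits encoded in the mitochondrial genome, 3 were called higher and 2 lower, against 8.49% and 24.2% of all tested proteins. Their median log2 difference was 0.82. One of the 3, NADH-ubiquinone oxidoreductase chain 3, had 68.6, 27.9 and 169 in F. intonsa and was listed at 0 in F. occidentalis. It passed the filter through F. intonsa alone, with most of its F. intonsa TPM in rows naming a mammal. ATP synthase subunit a, the proton channel, had 7611, 2297 and 7980 in F. intonsa, against 567, 630 and 541 in F. occidentalis (log2 difference 3.16 ± 0.56, SE, adjusted p = 0.00724), with 8.44% of its F. intonsa sum in rows naming a mammal. On the TPM as deposited, it was not called (adjusted p = 0.0642). NADH-ubiquinone oxidoreductase chain 5, a core proton pump of complex I, had 5035, 356 and 5698 in F. intonsa, against 39.3, 85.7 and 59.6 in F. occidentalis (log2 difference 5.19 ± 1.21, SE, adjusted p = 0.0217). Cytochrome c oxidase subunit 3 had 3087, 1623 and 3930 in F. intonsa, against 10401, 11317 and 8304 in F. occidentalis (log2 difference -1.88 ± 0.37, SE, adjusted p = 0.0116). The calls of ATP synthase subunit a (adjusted p = 0.0103), chain 5 (adjusted p = 0.0132) and subunit 3 (adjusted p = 0.0250) were kept when rows were joined by KEGG entry. Subunit 3 was not called under median-ratio scaling (adjusted p = 0.355). NADH-ubiquinone oxidoreductase chain 4 was not called, with 11121, 1237 and 16187 in F. intonsa, against 2299, 4005 and 3069 in F. occidentalis. The summed share of the mitochondrial subunits, without the fragment name of subunit 1, was 3.70%, 1.23% and 4.65% in F. intonsa, against 2.64%, 3.34% and 2.60% in F. occidentalis. Library 2 lay below and libraries 1 and 3 above the F. occidentalis range.

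Heat shock proteins, chaperones that fold other proteins, took 0.331%, 0.372% and 0.151% in F. intonsa, against 1.25%, 1.13% and 1.27% in F. occidentalis. Of 49 tested, 4 were called higher and 11 lower, shares near the 8.49% and 24.2% of all tested proteins. The median log2 difference of -1.91 was also close to that of all proteins. Small heat shock protein OV25-2 (Fragment) had 0, 16.7 and 0.619 in F. intonsa, against 4504, 3581 and 4595 in F. occidentalis (log2 difference -10.42 ± 1.23, SE, adjusted p = 0.00126). It passed the filter through the F. occidentalis libraries, with only library 2 of F. intonsa above 1. Joined with the other names of its entry, it was also called lower (adjusted p = 0.0274). Heat shock 70 kDa protein cognate 4, the constitutive chaperone, had 80.4, 1243 and 31.1 in F. intonsa, against 3730, 3400 and 3373 in F. occidentalis. It was not called by name (adjusted p = 0.0519), and its entry of 26 joined names was (adjusted p = 0.0434). The groups did not overlap for either protein, as for 53.1% of all tested proteins.

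Defensin, an antimicrobial peptide of the immune list, had 612, 18342 and 45.5 in F. intonsa, against 6.04, 2.48 and 7.36 in F. occidentalis, and was not called (log2 difference 7.09 ± 2.20, SE, adjusted p = 0.0567). All 3 F. intonsa libraries lay above all F. occidentalis libraries, on rows that the species did not share. Groups that do not overlap were found for 53.1% of all tested proteins. The immune list took 0.106%, 2.16% and 0.0108% in F. intonsa, against 0.181%, 0.166% and 0.197% in F. occidentalis. Of its members, 8 of 20 were called lower and 0 higher, against 24.2% and 8.49% of all tested proteins, and 7 of the 8 were listed at 0 in F. intonsa.

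Ribosomal proteins of the cytosol were mostly not called: 4 of 104 were higher and 6 lower, against 8.49% and 24.2% of all tested proteins. Their share was 12.6%, 7.69% and 11.6% in F. intonsa, against 12.5%, 10.1% and 7.00% in F. occidentalis. 60S acidic ribosomal protein P0, of the ribosomal stalk, had 434, 1028 and 878 in F. intonsa, against 2810, 2690 and 2138 in F. occidentalis (log2 difference -1.79 ± 0.44, SE, adjusted p = 0.0266). 60S ribosomal protein L4 had 201, 485 and 355 in F. intonsa, against 1180, 1164 and 1068 in F. occidentalis (log2 difference -1.80 ± 0.50, SE, adjusted p = 0.0397). Neither P0 nor L4 was called under median-ratio scaling (adjusted p = 0.383 for P0 and 0.373 for L4). 60S ribosomal protein L36a was called higher, with 47.6, 18.3 and 125 in F. intonsa, against 1.40, 1.16 and 1.19 in F. occidentalis. Its only row names a mammal, and its KEGG entry of 2 names was not called (adjusted p = 0.110). 3 of the 4 cytosolic ribosomal proteins called higher had most of their F. intonsa TPM in such rows.

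Mitochondrial ribosomal proteins took 1.55%, 0.669% and 0.860% in F. intonsa, against 0.576%, 0.635% and 0.571% in F. occidentalis. On the TPM as deposited the sum was lower (log2 difference -0.68). Of these proteins, 5 of 66 were called higher and 8 lower, against 8.49% and 24.2% of all tested proteins. 39S ribosomal protein L51 had 861, 312 and 476 in F. intonsa, against 78.5, 77.5 and 67.1 in F. occidentalis (log2 difference 2.75 ± 0.65, SE, adjusted p = 0.0222). 28S ribosomal protein S17 had 399, 180 and 375 in F. intonsa, against 62.1, 72.9 and 56.4 in F. occidentalis (log2 difference 2.22 ± 0.66, SE, adjusted p = 0.0490). Neither L51 nor S17 was called on the TPM as deposited (adjusted p = 0.224 for L51 and 0.375 for S17). The list of translation factors by its wording also takes in transcription elongation factors. Of its 68 tested members, 10 were called higher and 7 lower, against 8.49% and 24.2% of all tested proteins. Their share was 1.42%, 0.859% and 0.961% in F. intonsa, against 0.831%, 0.789% and 0.674% in F. occidentalis, and on the TPM as deposited the sum was lower (log2 difference -0.91).

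Of the remaining lists, glycolytic enzymes took 0.594%, 1.10% and 0.300% in F. intonsa, against 1.18%, 1.26% and 1.33% in F. occidentalis, with 2 of 14 called higher and 1 lower. Phosphoglycerate mutase 1, a late step of glycolysis, had 343, 982 and 590 in F. intonsa, against 112, 86.9 and 63.3 in F. occidentalis (log2 difference 2.76 ± 0.67, SE, adjusted p = 0.0242), opposite to the sum. It was not called on the TPM as deposited (adjusted p = 0.349). Of 13 histones, 3 were called lower and only histone H1, a linker histone by name, was called higher. It had 292, 33.1 and 58.7 in F. intonsa, against 1.45, 0.905 and 0.879 in F. occidentalis. Most of its F. intonsa value lay in 1 row of 571 bases, listed at 0 in F. occidentalis. That row matches a plant entry in Swiss-Prot and is annotated to Trichinella nelsoni. Its other row, with an animal match, had 0, 13.1 and 0 in F. intonsa and held the whole F. occidentalis value. Gut and salivary gland proteins had 1 of 22 called higher and 11 lower, proteasome subunits 0 of 44 higher and 3 lower, and ovary and germ line proteins 0 of 9 higher and 3 lower. The shares over all tested proteins were 8.49% higher and 24.2% lower. Transposon and retroelement proteins had 3 of 15 called higher and 9 lower, 8 of these listed at 0 in F. intonsa. Takeout and juvenile hormone binding proteins had 0 of 2 called higher and 1 lower, as did sex determination proteins. The sex determination protein called lower was transformer-2 protein homolog beta, a splicing factor, with 0, 0.0691 and 0 in F. intonsa, against 41.0, 64.9 and 64.6 in F. occidentalis, and it too reached the filter through the F. occidentalis libraries alone. Over the 32 lists, the two-sided exact permutation test of the summed share gave its smallest possible p of 0.1 for 16, and no list could reach 0.05 with 3 libraries against 3.

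Among proteins above 0 in all 6 libraries with a mean of at least 10 in both species, the 12 largest rises and 12 largest falls were named by rule. Beside those already described, cold shock domain-containing protein E1, an RNA-binding regulator of translation, had 9387, 640 and 6616 in F. intonsa, against 35.9, 66.9 and 61.7 in F. occidentalis (log2 difference 5.98 ± 1.13, SE, adjusted p = 0.00934). Iron-sulfur cluster assembly 1 homolog, a carrier in cluster biogenesis, had 977, 394 and 1755 in F. intonsa, against 48.5, 52.5 and 54.4 in F. occidentalis (log2 difference 4.06 ± 0.74, SE, adjusted p = 0.00824). E3 ubiquitin-protein ligase ZNRF3, a Wnt receptor regulator in vertebrates, had 874, 74.6 and 2086 in F. intonsa, against 14.7, 11.3 and 8.69 in F. occidentalis, with 100% of its F. intonsa TPM in rows naming a mammal. In all 12 rises but glutathione S-transferase 1-1, library 2 was the lowest F. intonsa library.

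The other rises were ATP synthase mitochondrial F1 complex assembly factor 2, transcription elongation regulator 1, microtubule-actin cross-linking factor 1, anaphase-promoting complex subunit 13, trafficking protein particle complex subunit 13, protein strawberry notch and probable ATP-dependent RNA helicase DDX17, with log2 differences of 3.88 to 7.49. Among the falls, actin-2, a cytoskeletal or muscle actin by name, had 71.1, 2088 and 267 in F. intonsa, against 30974, 28317 and 44138 in F. occidentalis (log2 difference -6.62 ± 1.21, SE, adjusted p = 0.00819). The KEGG entry of 15 actin names was not called (adjusted p = 0.117). V-type proton ATPase subunit C, of the pump that acidifies organelles, had 1.37, 31.8 and 0.310 in F. intonsa, against 265, 216 and 333 in F. occidentalis (log2 difference -5.84 ± 1.36, SE, adjusted p = 0.0215). The remaining falls were 28S ribosomal protein S21, glycine N-methyltransferase, peptide methionine sulfoxide reductase MsrB, chromosomal replication initiator protein DnaA and bifunctional purine biosynthesis protein PURH, with log2 differences of -5.31 to -4.27. The KEGG entry of S21 joined 2 names and lay the other way, with 6071, 196 and 4481 in F. intonsa, against 581, 581 and 455 in F. occidentalis (log2 difference 1.71 ± 1.33, SE, adjusted p = 0.392). DnaA is a bacterial protein by name. Of these 24 proteins, glutathione S-transferase 1-1 and cytochrome b-c1 complex subunit 10 were called under all 21 alternatives that keep proteins by name. Vitellogenin, actin-2, juvenile hormone epoxide hydrolase 1, cold shock domain-containing protein E1, transcription elongation regulator 1, anaphase-promoting complex subunit 13 and iron-sulfur cluster assembly 1 homolog lost the call, among those alternatives, in the fit of proteins above 0 in all 6 libraries alone. Joining by KEGG entry is not among the 21: there the glutathione S-transferase entry was lower and the actin entry was not called. The others also lost it under further alternatives, each of them when F. occidentalis library 1 was left out.

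**Figure D4:**
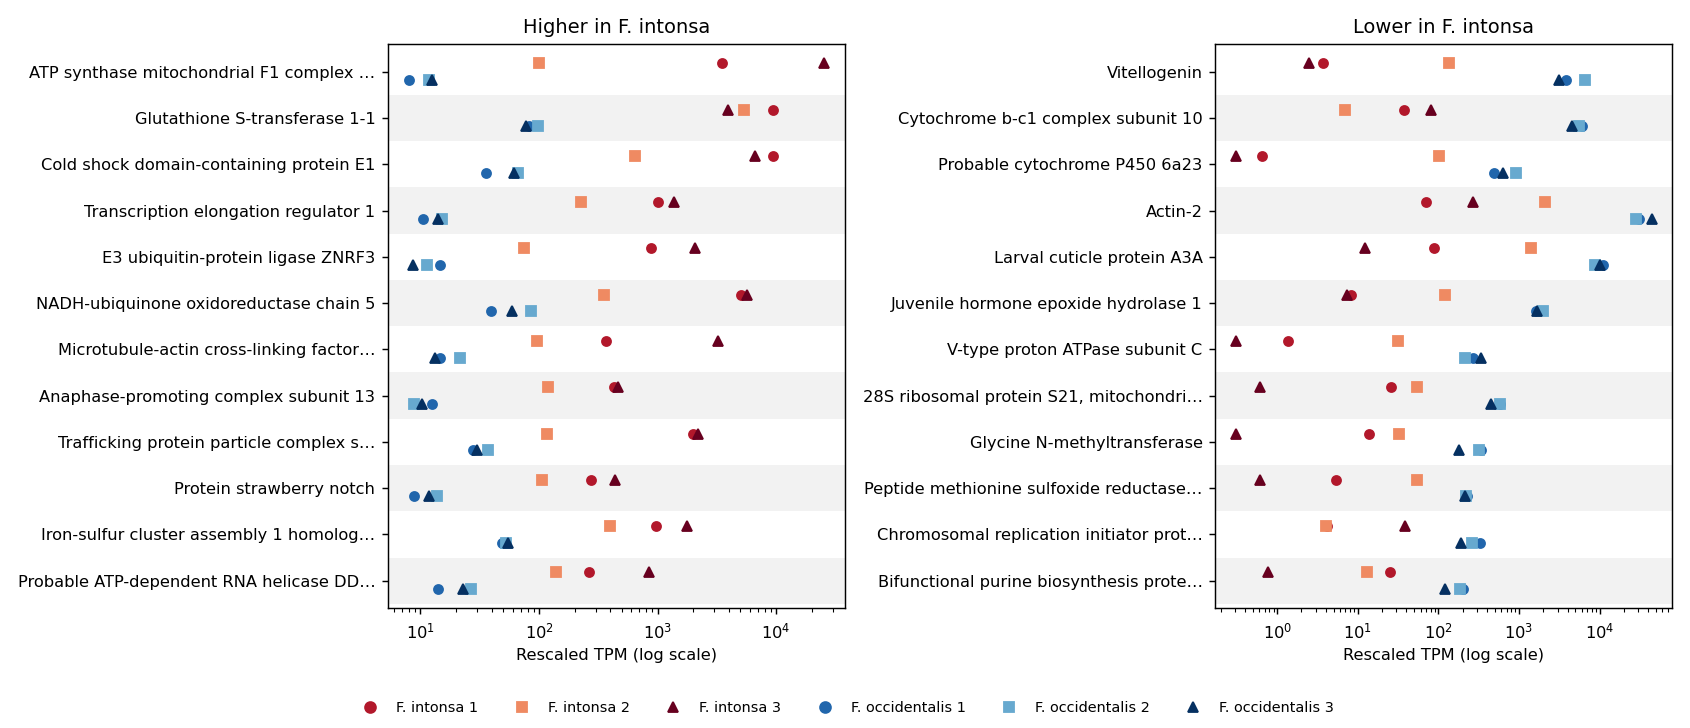
Rescaled TPM (log axis) of the 12 proteins with the largest rise and the 12 with the largest fall in F. intonsa, each with the 3 F. intonsa libraries in red on the upper line and the 3 F. occidentalis libraries in blue on the lower line. The groups do not overlap for any of the 24, as the rule required, and F. intonsa library 2 lies nearest to F. occidentalis for most of them.

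The proteins of highest mean were of different kinds in each species. In F. occidentalis they were actin, indirect flight muscle, actin-2, actin, muscle-type A2, myosin regulatory light chain 2, glutathione S-transferase 1, isoform D, and ATP synthase lipid-binding protein. In F. intonsa each was far higher in some libraries than in others. Autophagy protein 5, a conjugation factor of autophagosome growth, had 37420, 169 and 70506 in F. intonsa, against 91.6, 56.7 and 66.8 in F. occidentalis (adjusted p = 0.0769). NURF301, a chromatin remodelling subunit, had 13416, 117 and 48083 in F. intonsa, against 25.9, 21.5 and 19.2 in F. occidentalis (adjusted p = 0.0515). FERM, RhoGEF and pleckstrin domain-containing protein 2 had 9490, 30.6 and 29250 in F. intonsa, against 2.31, 5.04 and 4.89 in F. occidentalis (adjusted p = 0.0523). These 3 were high in libraries 1 and 3 and much lower in library 2. 60S ribosomal protein L37a had 9329, 1439 and 27349 in F. intonsa, against 1487, 1157 and 784 in F. occidentalis (adjusted p = 0.110).

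Uncharacterized protein ORF91 had 8121, 71513 and 994 in F. intonsa, against 32.5, 30.8 and 17.4 in F. occidentalis (log2 difference 8.27 ± 1.56, SE, adjusted p = 0.00939). On the TPM as deposited it was not called (adjusted p = 0.0574). Its 6 rows match an orchid entry in Swiss-Prot and are annotated to a whipworm or a water flea. Rows with a match outside animals took 10.1%, 9.90% and 10.5% of rescaled TPM in F. intonsa, against 5.01%, 4.35% and 4.22% in F. occidentalis. With animal matches alone, 230 proteins were called higher and 1138 lower.

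With a mean of at least 100 in the other species, 63 proteins had no TPM in any F. intonsa library and 140 had none in any F. occidentalis library. Beside those described, thromboxane-A synthase, a P450 name, was listed at 0 in F. intonsa and had 2179, 2416 and 3003 in F. occidentalis. Its entry joined 11 names and was called lower (adjusted p = 0.0354). Probable cysteine protease RDL3 was listed at 0 in F. intonsa and had 1028, 1585 and 1076 in F. occidentalis. The entry of RDL3, cathepsin L, joined 5 names and was not called (adjusted p = 0.176). Nedd8-activating enzyme E1 regulatory subunit, which starts the neddylation of target proteins, had 1565, 21.9 and 2023 in F. intonsa and was listed at 0 in F. occidentalis.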

How the data were processed

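The table holds RNA-seq values of thrips antennae. Per the labels' protocols, total RNA was copied and amplified by PCR with the SMARTer low-input method ahead of making the libraries. The submitters' processing notes name cutadapt, FastQC and Salmon. The sources used here give neither versions, an assembler nor a genome build. No label states the unit of the deposited values; the authors' values were taken as TPM because Salmon gives TPM and the female columns sum to just under 1000000. PCR duplicates cannot be seen in them, and no read counts were used. The Length column, deposited by the authors, was used to describe rows. 0 value columns lacked a sample.

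TPM was summed over rows with the same Swiss-Prot description (text before OS=), rows without one were dropped, and each library was rescaled to 1000000. TPM values depend on all other rows of a library, so the rescaling also moves every protein together. Proteins with at least 1 rescaled TPM in at least 3 of 6 libraries were tested with limma-trend on log2(value + 1), with Benjamini-Hochberg adjustment over all proteins tested and a threshold of 0.05. Summed shares of 32 protein lists, matched by words in the description, were compared with a two-sided exact permutation test. Rows were also joined by the KEGG orthology entry given in the deposited annotation. Rows naming a mammal were found from the annotation text with a list of genera. Of the gene IDs, 0 matched the RefSeq gene table, so names are those in the deposited file.

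The protein names, lists and tests were chosen with earlier results of these data known. Proteins were named by a rule: the 12 largest rises and 12 largest falls among called proteins above 0 in all 6 libraries with means of at least 10 in both species and no overlap; the 6 of highest mean in each species; all odorant-binding and chemosensory proteins; of other lists up to 4 called members above 0 in all 6 libraries and the 2 of highest mean; and the 4 highest among proteins listed at 0 in 1 species with a mean of at least 100 in the other. Not all of them are described. The fit was tested on simulated data of 5513 proteins. Alternatives were other scalings, filters, pseudocounts, joins and fits, each library left out, and a replicate block; joining by KEGG entry, F. intonsa library 2 alone and leaving out rows naming a mammal were added after seeing the data. Fits used limma 3.58.1 in R 4.3.3. Sums, permutation tests and figures used scipy 1.17.1, numpy 2.4.6, pandas 2.3.3, statsmodels 0.14.6 and matplotlib 3.10.9 under Python 3.11.15.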

Additional observations from a re-analysis of the deposited data

Results flagged for a closer look

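Rows without a Swiss-Prot name lie outside the comparison, and in 2 F. intonsa libraries they held more of the deposited TPM than in any F. occidentalis female library. They held 87.432% in F. intonsa library 1 and 93.462% in library 3, against 56.2% to 61.1% in F. occidentalis. F. intonsa library 2, with 54.8%, lay below that range.

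Rows annotated to the pig were seen in all 3 F. intonsa libraries above every F. occidentalis library. They held 0.2526%, 0.2718% and 0.3184% of all deposited TPM in F. intonsa libraries 1, 2 and 3, against 0.0012%, 0.0020% and 0.0017% in F. occidentalis. Rows worded as odorant-binding proteins but without a Swiss-Prot name, which the comparison leaves out, held 0.4225% in F. intonsa library 2, above the highest F. occidentalis female library at 0.3733%. The source of these rows was not tested.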

How the results depend on the processing

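The 1800 calls (468 higher, 1332 lower) moved with the following choices. Proteins above 0 in all 6 libraries gave 2 calls (1 higher, 1 lower). Array quality weights gave 3992 (1279 higher, 2713 lower), rows not joined 7921 (1542 higher, 6379 lower), and KEGG entries 429 (78 higher, 351 lower). The array weights were 1.496, 0.07 and 0.072 for F. intonsa libraries 1, 2 and 3, against 3.558, 7.167 and 5.265 in F. occidentalis. Library 2 was thus weighted as low as library 3. F. intonsa library 2 against the 3 F. occidentalis libraries gave 2828 (1116 higher, 1712 lower), of which 1547 were among the 1800; its lone library is assumed to vary like the others. Animal matches alone gave 230 higher. Leaving out 1 library gave 1293 to 3482 calls, 205 to 841 higher and 1087 to 2641 lower: without F. intonsa library 2 there were 3482, and without F. occidentalis library 1, 2 or 3 there were 225, 206 and 205 higher. The median log2 difference of all proteins was -1.89, against -1.65 with median-ratio scaling and -1.24 with quantile normalization. The replicate numbers do not pair the libraries: the correlation of deviations between libraries of the same number was 0.022, 0.041 and -0.075. A replicate block gave 1600 calls (400 higher, 1200 lower).

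Summed shares (log2 difference) turned direction on the TPM as deposited for ABC transporters (-0.27), cytosolic (-1.26) and mitochondrial ribosomal proteins (-0.68), nuclear respiratory subunits (-1.33), translation factors (-0.91) and transposon proteins (-1.13). With the highest row of each description they did so for takeout (0.57), cytosolic ribosomal (-0.0283), nuclear respiratory (-0.0189) and transposon proteins (-0.23). With animal matches alone they did so for mitochondrially encoded subunits (0.0458), proteasome (0.0115) and transposon proteins (-0.75). Leaving out 1 library, they ranged from -0.11 to 0.33 for cytosolic ribosomal proteins, -0.42 to 0.55 for mitochondrially encoded subunits, -0.0499 to 0.14 for nuclear respiratory subunits, -0.44 to 0.24 for the proteasome, -1.01 to 0.52 for histones, -2.91 to 0.0813 for ovary, -2.41 to 1.40 for immune proteins and -0.0056 to 0.72 for transposon proteins.

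Of 58 named proteins that were called, 14 kept the call under every alternative by name that gave them a value. Another 8 lost it under 1 and 36 under more, at most 12. Leaving out 1 library ended the call of 32. Except for the proteins called when only those above 0 in all 6 libraries were fitted, the 14 passed the filter through 1 species. The filter therefore bears on their calls. Joining by KEGG entry is not among these alternatives. When joined, the entries of cytochrome c oxidase subunits 1 and 4 were not called, while that of thromboxane-A synthase was. Of the proteins named but not called, these turned direction in F. intonsa library 2 alone: larval cuticle protein A1A (3.84), ejaculatory bulb-specific protein 3 (0.25), the odorant receptor coreceptor (0.30), ionotropic receptor 25a (1.86), gustatory receptor 64f (0.79), sensory neuron membrane proteins 2 (0.11) and 1 (0.61), and NADH-ubiquinone oxidoreductase chain 4 (-1.30). On the TPM as deposited, A10 (-0.41), chain 4 (-0.38) and synaptotagmin 1 (-1.20) did, with median-ratio scaling A1A (0.10), and with array weights synaptotagmin 1 (-0.088). Leaving out 1 library gave -2.72 to 1.71 for A1A, -0.30 to 2.61 for A10, -2.27 to 0.39 for sensory neuron membrane protein 1 and -0.0234 to 0.25 for synaptotagmin 1. The cause was not tested. Depth is unknown, so a protein listed at 0 is not shown to be absent.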
